A study of Mus musculus with 13 samples.

Results

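The 40 genes described here code for the machinery that licenses, starts and carries out DNA replication, together with the switch that takes cells from G1 into S phase. They were chosen by gene symbol from a table of 53653 genes, and all 40 passed the filter on low counts among 22265 genes tested. RNA-seq was run on sorted cells (GFP-positive) of mouse medulloblastomas, tumours of the cerebellum that arise here from granule cell precursors carrying SmoM2, an active form of Smoothened that keeps the Sonic Hedgehog pathway switched on. The study compared tumours with and without Kmt2d, a histone H3 lysine 4 methyltransferase, and spinal metastases with primary tumours. There were 4 libraries of spinal metastases with the Kmt2d knockout (KO metastasis, replicates 3, 4, 6 and 7), 4 of primary cerebellar tumours with the knockout (KO primary, replicates 3, 4, 6 and 7) and 5 of primary tumours that kept Kmt2d (control primary, replicates 3 to 7). All 3 groups carried SmoM2, so none is normal tissue. Knockout mice (written SmoM2-Kmt2dCf/Cf in the protocol) were 5 to 8 weeks old and control mice (SmoM2) 6 to 16 weeks. RNA came from frozen pellets of 0.1 to 3 M cells for metastases and 1 to 5 M cells for primary tumours. The sources used here give no Cre driver, strain or sex of the mice. Below, metastases are the KO metastasis libraries and controls the control primary libraries, values per library follow the order of the replicate numbers, means are given ± SD over 4, 4 and 5 libraries, and a log2 change is that of the group named first over the other. Age cannot be told apart from genotype in these groups, nor site and pellet size from metastasis. Whether each library is a separate mouse is not in the labels, so a p-value measures only the spread between these libraries, which may be technical.

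Replication is prepared in G1, when the origin recognition complex with Cdc6 and Cdt1 loads the Mcm2-7 helicase on DNA. At the start of S phase Cdc45 and the GINS complex join the helicase, and polymerases, the sliding clamp and its loader copy the strands while chromatin is rebuilt behind the fork. Many of these genes are known targets of E2F transcription factors, which cyclin E and its kinase free from the retinoblastoma protein, and granule cell precursors divide in response to Sonic Hedgehog before they leave the cycle as granule neurons.

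Because many of the 40 genes are known E2F targets, the letters of the E2F site were searched in their promoters. RefSeq windows on GRCm38.p6, running from 250 bases before to 50 bases after a transcript start, were matched for 33 of the 40 genes. Mcm4, Gins1, Gins2, Gins4, Pole, Rfc2 and Ccne2 had no window. The letters TTTCCCGC, TTTGGCGC, TTTGCCGC and TTTCGCGC, read on both strands, stood in the windows of 13 of these 33 genes (39.4%), against 4.18% of the tested genes that have a window and 2.60% of all genes that do. Among tested genes in the middle range of GC content of these promoters the share was 4.65%, and among the 59 other replication and G1/S genes with a window it was 33.9%. There were 19 matches in the 13 genes, and some of them overlap because the letters read on one strand run into those on the other. The letters CCAAT stood in 63.6% of the 33 genes against 42.3% of tested genes, and TTTGAA or TTCGAA (the CHR element of G2/M genes) in 15.2% against 17.0%. A match is a description of the letters and does not show binding. The 200 bases before the start of Mcm6 (chr1:128359706-128359905, minus strand) and of Mcm5 (chr8:75109309-75109508, plus strand) are printed as the helicase promoters with the most matches upstream. Shorter stretches are shown for Cdt1 (chr8:122568037-122568064, plus strand), Cdc6 (chr11:98908003-98908030, plus strand), Orc1 (chr4:108579417-108579444, plus strand), Mcm7 (chr5:138171850-138171877, minus strand), Gins3 (chr8:95633508-95633535, plus strand), Pola1 (chrX:93632276-93632303, minus strand) and Uhrf1 (chr17:56304118-56304145, plus strand). All run 5′ to 3′ on the strand of the gene, and capitals mark the E2F letters on either strand.
Mcm6: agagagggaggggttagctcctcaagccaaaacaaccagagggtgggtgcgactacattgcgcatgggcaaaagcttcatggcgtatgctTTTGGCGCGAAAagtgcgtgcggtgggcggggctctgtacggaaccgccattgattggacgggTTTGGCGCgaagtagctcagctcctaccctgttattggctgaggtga
Mcm5: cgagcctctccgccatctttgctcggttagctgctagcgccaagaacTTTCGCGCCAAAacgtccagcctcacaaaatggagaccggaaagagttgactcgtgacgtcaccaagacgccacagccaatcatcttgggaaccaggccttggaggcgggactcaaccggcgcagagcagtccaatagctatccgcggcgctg
Cdt1: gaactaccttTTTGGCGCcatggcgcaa
Cdc6: ccggtggagaGCGGGAAAtcgcctgggg
Orc1: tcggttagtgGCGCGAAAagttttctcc
Mcm7: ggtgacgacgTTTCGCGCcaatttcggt
Gins3: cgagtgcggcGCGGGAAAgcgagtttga
Pola1: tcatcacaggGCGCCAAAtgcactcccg
Uhrf1: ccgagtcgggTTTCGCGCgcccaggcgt
Mcm6 and Mcm5 each hold 12 letters in which the motif reads on both strands, and Mcm6 holds a further match nearer its start. Counting the first base of the transcript as 1 with no base 0, the stretch of Orc1 begins its letters 27 bases before the start and that of Cdt1 begins 33 bases into the transcript.

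Total counts per library lay between 23545383 and 41412288. CPM is the count scaled to library depth, here with TMM factors, except that receptor genes, Xist and Ddx3y were scaled by total counts alone. Receptor genes of the nose (olfactory and vomeronasal), not known for a role in the cerebellum, took 349 to 1752 CPM in KO metastasis 6 and 7, KO primary 7 and control primary 3. They took 6.08 to 83.5 CPM in the other 9. KO metastasis 3 held 2.06% of its counts on mitochondrial transcripts, against 0.633% to 0.876% in the other 12. The Xist level was between 324 and 509.5 CPM for controls 5, 6 and 7 and at most 1.02 CPM for the other 10 libraries. Ddx3y, a gene of the Y chromosome, was at 0 CPM in controls 5, 6 and 7 and at 61.6 to 112 CPM in the other 10. By these 2 genes, which are read as marks of sex, the controls were mixed and the knockout libraries were not. The part of sex in the comparisons against controls was not tested. Kmt2d itself measured 115, 105, 111 and 131 CPM in the 4 metastases, 91.7, 93.0, 111 and 168 CPM in the 4 KO primary tumours and 78.1, 104, 175, 129 and 141 CPM in the 5 controls. Its log2 change was -0.11 (edgeR adjusted p = 0.956) in KO primary tumours over controls. A count over the whole gene can miss the deletion of some exons, and the sources used here do not name the deleted exons, so this level is no check of the genotype. Markers of granule cell precursors, the labelled cell type, summed to 4547 to 5979 CPM in KO metastases, 4644 to 5760 CPM in KO primary and 3273 to 4533 CPM in control primary tumours, with none of the 10 at 0. The sums do not stand for every marker. Mycn measured 314 to 638, 409 to 701 and 413 to 714 CPM in these 3 groups, and Zic1 198 to 364, 194 to 222 and 198 to 300 CPM. Oligodendrocyte markers summed to 172 to 1902, 68.3 to 98.8 and 144 to 402 CPM in the same 3 groups, with Opalin at 0 in KO primary tumours. The part of these cell types in the results was not tested.

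The 40 genes stood slightly higher in KO primary tumours over controls, without a call for any of them. No gene had an edgeR adjusted p below 0.05, against 2.93% of all tested genes (653 of 22265). The log2 change was positive in 40 of 40 genes, against 45.6% of all tested genes, and its median was 0.30 against -0.053 over all genes. It ran between 0.029 for Orc4, a subunit of the origin recognition complex, and 0.58 for Mcm6, a subunit of the helicase. Among the 9425 tested genes at the expression levels of these 40, 63.0% were positive, the median was 0.087 and 4.76% were called. Cdt1 had the smallest edgeR adjusted p of the 40, 0.0615. An unadjusted p below 0.05 was found for 16 genes, all of them higher, where 6.69% of all genes were higher and 6.88% lower at that p. The 95% interval of the change lay above 0 in these 16 and below a 2-fold rise in 39 of the 40, the highest upper bound being a log2 change of 1.06. All 4 KO primary libraries lay above all 5 controls in 6 genes (Cdt1, Mcm5, Mcm6, Pola1, Pola2 and Chaf1a), against 3.57% of all tested genes. None lay wholly below, where 3.85% of all genes did. In bulk libraries, a larger share of cells in S phase and more RNA of these genes per cell cannot be told apart. The median log2 change was 0.36 for the 13 genes with E2F letters in their promoter window and 0.21 for the 20 with a window and no letters, given as a description with no test. Scaling mattered little for the sign, which was positive in 38 genes with total counts alone and in 37 with upper quartile factors. DESeq2 called 3 of the 40 (Cdt1, Pola2 and Uhrf1), where it called 8.71% of all genes it tested. Limma voom with quality weights called 9 (Cdt1, Chaf1b, Gins2, Mcm6, Pcna, Pola2, Rfc2, Rfc3 and Rfc5), against 14.7% of all genes.

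**Figure D1:**
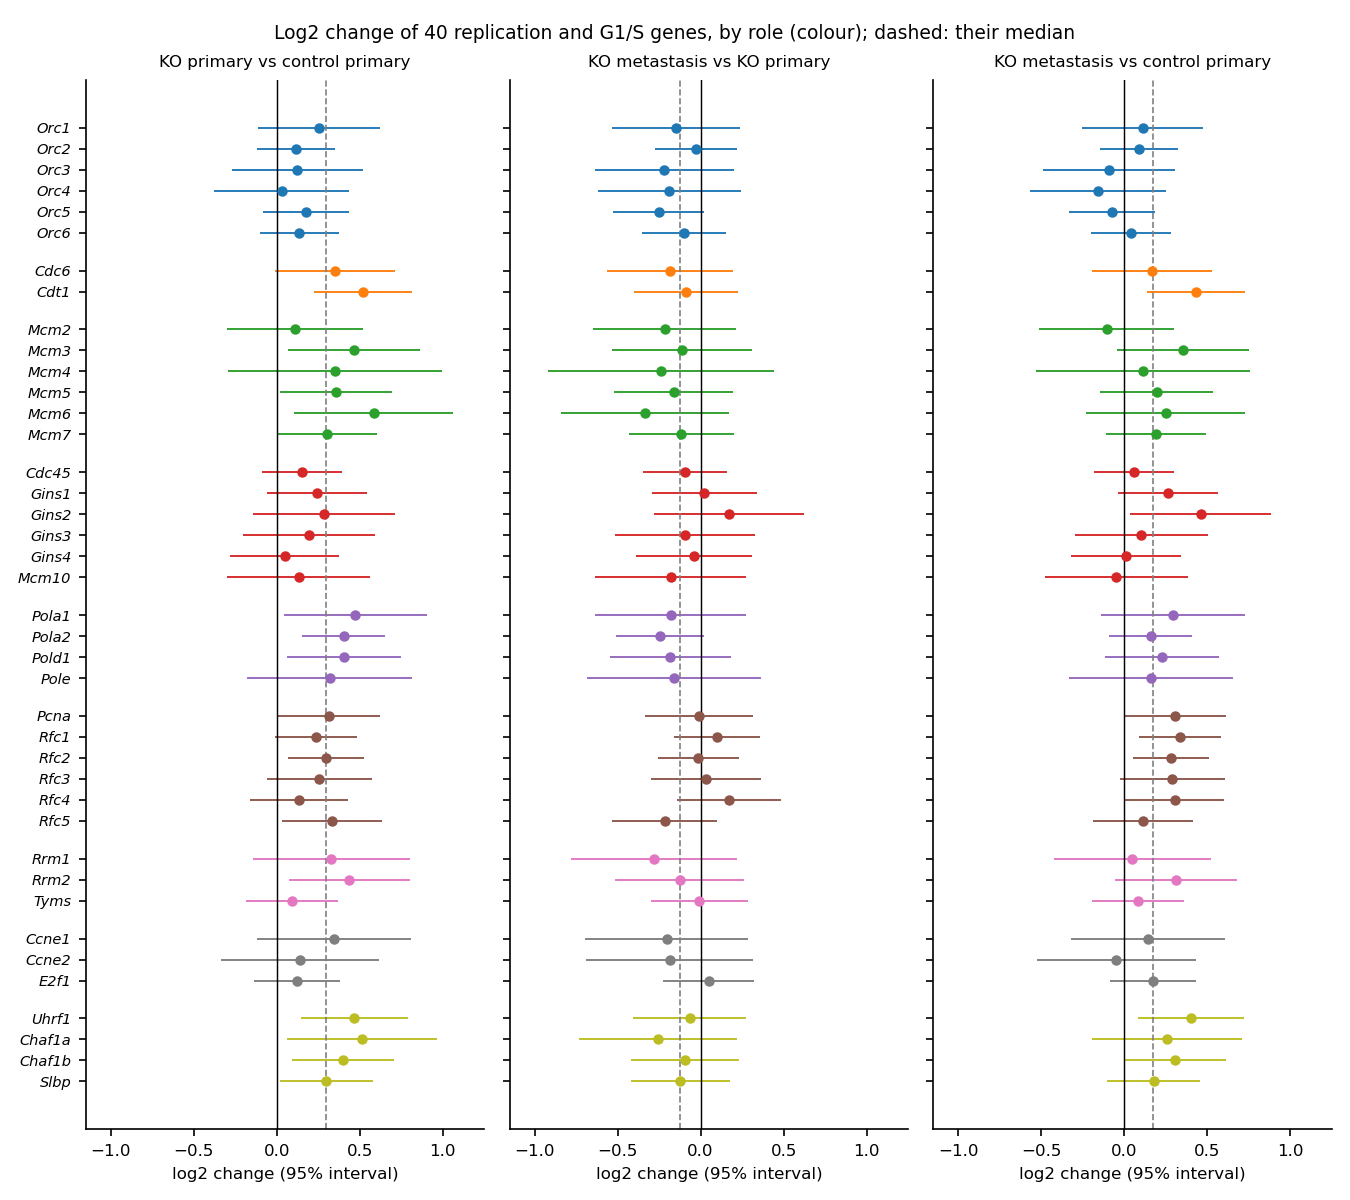
Log2 change with its 95% interval (horizontal axis) of each of the 40 genes (rows, coloured by role) for KO primary against control primary, KO metastasis against KO primary and KO metastasis against control primary, with the median as a dashed line. All 40 points lie right of 0 in the first panel (median 0.30), 6 do in the second (median -0.12) and 34 in the third (median 0.17).

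No difference between spinal metastases and KO primary tumours passed the test in these genes. None of the 40 was called, against 0.00449% of all tested genes (1 of 22265), and none had an unadjusted p below 0.05, against 3.23% of all genes (1.94% higher and 1.29% lower). The log2 change was negative in 34 genes and positive in 6 (49.6% of all genes were positive), with a median of -0.12 against -0.004 over all genes and a range of -0.33 for Mcm6 to 0.17 for Gins2. Genes at the same expression levels shared part of this shift. Of these 9425 tested genes 37.5% were positive, and their median was -0.065. Every edgeR adjusted p was 0.99974, and the 95% intervals reached down to -0.92 and up to 0.62. These intervals leave room for a fall or a rise below 2-fold. Pola2 was the 1 gene whose metastases all lay below the KO primary tumours, where 1.04% of all genes do, and none lay above, where 0.683% do. The sign of the change depended on KO metastasis 3. Without it 19 of the 40 genes were positive and the median was -0.0043, against 0.060 over all genes in that fit.

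Against control primary tumours the 4 metastases together took a middle place. None of the 40 genes was called, against 3.08% of all tested genes (685 of 22265). The log2 change was positive in 34, against 46.6% of all genes, and 6 genes had an unadjusted p below 0.05, all higher, where 6.67% of all genes were higher and 7.57% lower. These 6 were Cdt1, Rfc1, Uhrf1, Rfc2, Gins2 and Rfc4. The median was 0.17 against -0.039 over all genes, between -0.16 for Orc4 and 0.46 for Gins2. Of the 9425 tested genes at the expression levels of the 40, 53.2% were positive, the median was 0.025 and 4.54% were called. No gene had all metastases above all controls, against 2.81% of all genes, and none had them all below, against 4.01%. Both comparisons against control primary tumours share the same 5 control libraries, so they are not independent of each other. By group mean, 34 genes were highest in KO primary tumours and 6 in KO metastases, 34 were lowest in control primary tumours and 6 in KO metastases, and 28 ran in the order KO primary, KO metastasis, control primary. The middle place shifted with single libraries. Without KO metastasis 3, 39 of the 40 were positive over controls, with a median of 0.23, and the median against KO primary tumours was -0.0043. Without KO metastasis 4, 32 were positive over controls, with a median of 0.092, and the median against KO primary tumours was -0.18. Without control primary 6 the median over controls was 0.25.

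**Figure D2:**
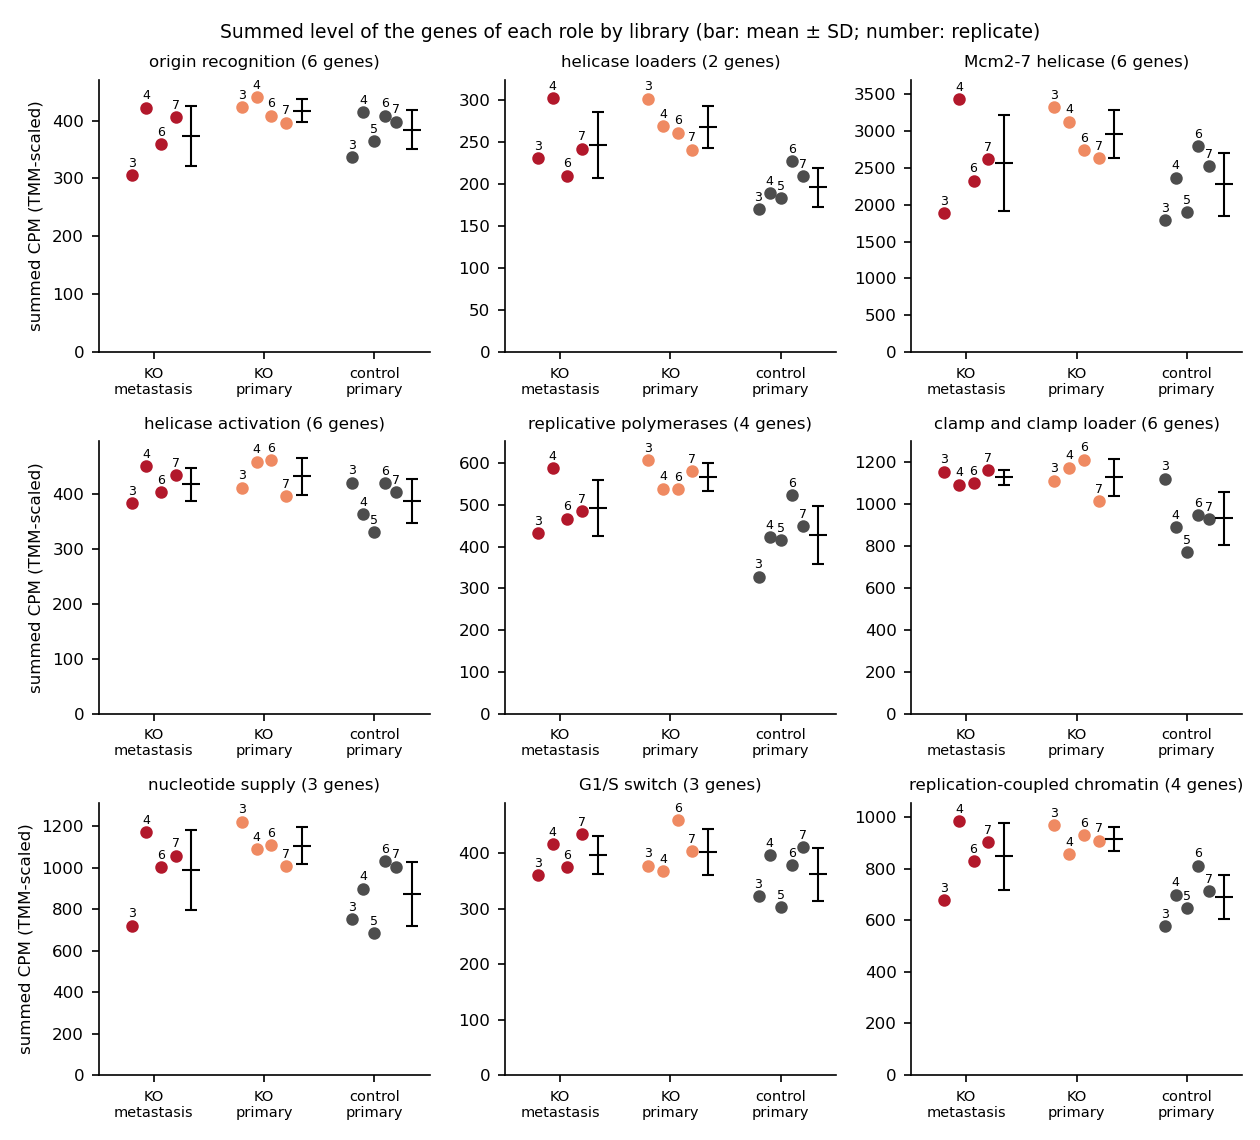
Summed CPM (vertical axis, from 0) of the genes of each role in every library, with the replicate number beside each point and mean ± SD over libraries at the right of each group. The 4 KO primary libraries sit above the 5 control libraries for the helicase loaders, the polymerases and the replication-coupled chromatin genes, and the groups overlap for the other 6 roles.

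The origin recognition complex marks the places where replication starts, and its 6 subunits had small log2 changes in KO primary tumours over controls. Their median log2 change was 0.13 in KO primary tumours over controls, -0.17 in metastases over KO primary tumours and -0.019 in metastases over controls. Orc1 (chr4:108579423-108614833, plus strand), the large ATPase subunit that cycles through G1, measured 10.9, 14.1, 11.3 and 11.97 CPM in the 4 metastases, 10.7, 14.6, 11.3 and 16.8 CPM in the 4 KO primary tumours and 11.7, 10.2, 11.9, 11.5 and 10.7 CPM in the 5 controls. KO primary 7 was the highest library, followed by KO primary 4 and KO metastasis 4, and the groups overlapped. The means were 12.1 ± 1.45 CPM in KO metastases, 13.4 ± 2.89 CPM in KO primary tumours and 11.2 ± 0.718 CPM in control primary tumours, with a log2 change of 0.25 (edgeR adjusted p = 0.622, SE 0.170) in KO primary tumours over controls. Orc4 (chr2:48902824-48950277, minus strand), another subunit of the complex, measured 41.2, 81.7, 67.8 and 77.8 CPM in the 4 metastases, 79.5, 84.5, 66.7 and 75.4 CPM in the 4 KO primary tumours and 54.9, 86.2, 79.7, 81.8 and 72.5 CPM in the 5 controls. KO metastasis 3 was the lowest and control primary 3 the next lowest, and the other 11 libraries lay together. Orc4 had a log2 change of -0.16 (edgeR adjusted p = 0.868, SE 0.191) in metastases over controls. Orc5 (chr5:22486485-22550429, minus strand), also a subunit, measured 43.7, 55.6, 48.7 and 53.8 CPM in the 4 metastases, 59.3, 61.9, 65.6 and 53.4 CPM in the 4 KO primary tumours and 58.8, 55.6, 46.2, 49.4 and 55.8 CPM in the 5 controls. KO primary 3, 4 and 6 lay above every library of both other groups and KO primary 7 did not. Orc5 had a log2 change of -0.25 (edgeR adjusted p = 0.99974, SE 0.128) in metastases over KO primary tumours. Orc2, Orc3 and Orc6 had log2 changes of 0.12, 0.12 and 0.14 in KO primary tumours over controls.

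The median log2 change of the helicase loaders was 0.43 in KO primary tumours over controls. Cdt1 and Cdc6 together summed to 231, 301, 209.8 and 242 CPM in the 4 metastases, 301, 269, 261 and 241 CPM in the 4 KO primary tumours and 169.8, 189, 183, 227 and 209 CPM in the 5 controls. Cdt1 (chr8:122568015-122573554, plus strand), which delivers the Mcm2-7 complex to origins and is destroyed in S phase, measured 168, 191, 124 and 142 CPM in the 4 metastases, 191, 166, 159 and 148 CPM in the 4 KO primary tumours and 108, 107, 111, 132 and 122 CPM in the 5 controls. The 4 KO primary libraries all lay above the 5 controls, and of the metastases KO metastasis 6 lay within the control range. With means of 156 ± 29.2 CPM in KO metastases, 166 ± 18.5 CPM in KO primary tumours and 116 ± 10.6 CPM in control primary tumours, Cdt1 had a log2 change of 0.52 (edgeR adjusted p = 0.0615, SE 0.137) for KO primary and a log2 change of 0.43 (edgeR adjusted p = 0.124, SE 0.137) for KO metastasis, each against control primary. Cdt1 was below an adjusted p of 0.05 in 6 of 20 alternatives for the first and in 3 of 20 for the second, over a range of 0.00613 to 0.419 and of 0.0203 to 0.523. Cdc6 (chr11:98907801-98923940, plus strand), the ATPase that works with Cdt1, measured 62.8, 110.4, 85.4 and 99.5 CPM in the 4 metastases, 109.7, 102, 102 and 93.0 CPM in the 4 KO primary tumours and 61.3, 82.3, 72.4, 95.7 and 87.2 CPM in the 5 controls. Control primary 3 and KO metastasis 3 were lowest, and control primary 6 lay above KO primary 7. Its change was 0.35 (edgeR adjusted p = 0.388) in KO primary tumours over controls and -0.18 (edgeR adjusted p = 0.99974) in metastases over KO primary tumours.

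The 6 subunits of the Mcm2-7 helicase, the ring that unwinds DNA at the fork, had a median log2 change of 0.35 in KO primary tumours and 0.19 in metastases, both over controls. Mcm6 (chr1:128331590-128359664, minus strand) measured 366, 905, 603 and 651 CPM in the 4 metastases, 935, 851, 732 and 666 CPM in the 4 KO primary tumours and 415, 532, 432, 649 and 626 CPM in the 5 controls. KO primary libraries all lay above the controls, KO metastasis 3 was the lowest of the 13 and KO metastasis 4 stood among the highest. The means were 631 ± 221 CPM in KO metastases, 796 ± 120.4 CPM in KO primary tumours and 531 ± 107 CPM in control primary tumours. The change was 0.58 (edgeR adjusted p = 0.224) in KO primary tumours over controls, -0.33 (edgeR adjusted p = 0.99974) in metastases over KO primary tumours and 0.25 (edgeR adjusted p = 0.760) in metastases over controls. Mcm3 (chr1:20802968-20820312, minus strand) measured 262, 437, 289 and 359 CPM in the 4 metastases, 376, 408, 326 and 345 CPM in the 4 KO primary tumours and 194, 289, 213, 344 and 278 CPM in the 5 controls. Control primary 3 and 5 were the lowest and KO metastasis 4 the highest, with control primary 6 inside the KO primary range. Mcm3 had a log2 change of 0.47 (edgeR adjusted p = 0.251, SE 0.185) in KO primary tumours and a log2 change of 0.35 (edgeR adjusted p = 0.437, SE 0.185) in metastases, both over controls. Mcm5, with means of 405 ± 93.6 CPM in KO metastases, 454 ± 34.9 CPM in KO primary tumours and 354 ± 53.5 CPM in control primary tumours, had no overlap between KO primary and control libraries (edgeR adjusted p = 0.328). Its margin was narrow, with KO primary 7 at 422 CPM and control primary 6 at 420 CPM. Mcm2, Mcm4 and Mcm7 had log2 changes of 0.11, 0.35 and 0.31 in KO primary tumours over controls. Mcm4 varied widely among the metastases, at 101, 348, 223 and 243 CPM.

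Cdc45, the 4 GINS subunits and Mcm10 turn the loaded ring into a working helicase. Their median log2 change was 0.17 in KO primary tumours and 0.081 in metastases, both over controls. Gins2 (chr8:120578633-120589304, minus strand) measured 80.4, 57.7, 61.0 and 59.9 CPM in the 4 metastases, 50.5, 63.8, 67.0 and 48.6 CPM in the 4 KO primary tumours and 72.7, 40.2, 37.4, 44.7 and 40.8 CPM in the 5 controls. KO metastasis 3 was the highest library and control primary 3 the next. The other 4 controls lay below all 8 knockout libraries. The change of Gins2 was 0.29 (edgeR adjusted p = 0.649) in KO primary tumours and 0.46 (edgeR adjusted p = 0.305) in metastases, both over controls. Without control primary 3 the metastasis comparison called Gins2 (edgeR adjusted p = 0.0161), where it called 6.00% of all genes. Gins1 (chr2:150905400-150931280, plus strand) measured 55.6, 44.0, 42.9 and 48.4 CPM in the 4 metastases, 43.2, 50.7, 53.5 and 40.7 CPM in the 4 KO primary tumours and 45.5, 37.3, 33.3, 45.3 and 37.5 CPM in the 5 controls. It too was highest in KO metastasis 3, and control primary 3 and 6 lay inside the range of both knockout groups. Gins1 had a log2 change of 0.24 (edgeR adjusted p = 0.528, SE 0.140) in KO primary tumours over controls. Mcm10 (chr2:4989714-5012791, minus strand), a scaffold that helps start unwinding, measured 49.1, 109, 73.7 and 81.6 CPM in the 4 metastases, 84.5, 92.9, 87.7 and 90.7 CPM in the 4 KO primary tumours and 57.5, 86.0, 75.7, 94.3 and 92.2 CPM in the 5 controls. The lowest values were in KO metastasis 3 and control primary 3 and the groups overlapped. Its change was -0.18 (edgeR adjusted p = 0.99974) in metastases over KO primary tumours. Cdc45, Gins3 and Gins4 had log2 changes of 0.15, 0.19 and 0.047 in KO primary tumours over controls. In the annotation 67.3% of the exonic bases of Gins2 overlap Gse1 on the opposite strand, which drew 3.90 times its counts. Whether the counting used strand is not stated, so the level of Gins2 is uncertain.

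Of the replicative polymerases, both subunits of polymerase alpha, which lays down primers, had all KO primary libraries above all controls. Pola2 (chr19:5940542-5964202, minus strand), the accessory subunit of polymerase alpha, measured 128, 172, 153 and 172 CPM in the 4 metastases, 188, 191, 189 and 175 CPM in the 4 KO primary tumours and 133, 148, 121, 151 and 148 CPM in the 5 controls. Every KO primary library lay above every metastasis and every control. Pola2 averaged 157 ± 20.9 CPM in KO metastases, 186 ± 7.51 CPM in KO primary tumours and 140.3 ± 12.7 CPM in control primary tumours. It had a log2 change of 0.40 (edgeR adjusted p = 0.0883, SE 0.116) in KO primary tumours over controls and a log2 change of -0.24 (edgeR adjusted p = 0.99974, SE 0.123) in metastases over KO primary tumours. Pola1 (chrX:93304767-93632155, minus strand), the catalytic subunit, measured 78.4, 89.8, 81.8 and 63.7 CPM in the 4 metastases, 91.2, 93.1, 80.7 and 90.5 CPM in the 4 KO primary tumours and 34.6, 64.8, 79.3, 79.3 and 61.9 CPM in the 5 controls. KO primary libraries again lay above all controls, by a narrow margin over control primary 5 and 6, while control primary 3 was far below the rest. The change of Pola1 was 0.47 (edgeR adjusted p = 0.298) in KO primary tumours and 0.29 (edgeR adjusted p = 0.614) in metastases, both over controls. Pold1, the catalytic subunit of the lagging strand polymerase delta, averaged 198 ± 33.0 CPM in KO metastases, 225 ± 31.3 CPM in KO primary tumours and 169.9 ± 31.6 CPM in control primary tumours, and Pole, that of the leading strand polymerase epsilon, 59.5 ± 13.6 CPM in KO metastases, 66.5 ± 6.97 CPM in KO primary tumours and 53.3 ± 18.0 CPM in control primary tumours. Their log2 changes in KO primary tumours over controls were 0.41 (edgeR adjusted p = 0.248) and 0.32 (edgeR adjusted p = 0.670).

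Pcna, the sliding clamp, and Rfc1 to Rfc5, the complex that loads it, had a median log2 change near 0 between both knockout groups. Together they summed to 1155, 1093, 1101 and 1162 CPM in the 4 metastases, 1111, 1173, 1213 and 1012 CPM in the 4 KO primary tumours and 1122, 890.1, 771, 946 and 927 CPM in the 5 controls. Control primary 3 lay within the range of the knockout libraries and the other 4 controls below it. The median log2 change was 0.28 in KO primary tumours over controls, 0.011 in metastases over KO primary tumours and 0.30 in metastases over controls. Rfc1 (chr5:65261850-65335670, minus strand), the large subunit of the loader, measured 164, 141, 129.6 and 139.9 CPM in the 4 metastases, 141, 130.1, 129.6 and 136 CPM in the 4 KO primary tumours and 111, 131, 96.4, 120.2 and 111 CPM in the 5 controls. Control primary 4 overlapped with the knockout libraries and the other controls lay below them. Rfc1 had a log2 change of 0.33 (edgeR adjusted p = 0.157, SE 0.114) in metastases over controls. Rfc2 (chr5:134581366-134601805, plus strand) measured 234, 225, 217 and 248 CPM in the 4 metastases, 219, 251, 252 and 211 CPM in the 4 KO primary tumours and 219, 174, 179, 188 and 191 CPM in the 5 controls. Here the 1 control within the knockout range was control primary 3. Rfc2 had a log2 change of 0.30 (edgeR adjusted p = 0.191, SE 0.107) in KO primary tumours and a log2 change of 0.28 (edgeR adjusted p = 0.221, SE 0.107) in metastases, both over controls. Rfc5 (chr5:117378103-117389047, minus strand) measured 112, 166, 153 and 142 CPM in the 4 metastases, 170.0, 169, 182 and 144 CPM in the 4 KO primary tumours and 139, 126, 105, 151 and 139 CPM in the 5 controls. KO metastasis 3 and control primary 5 were lowest and the groups overlapped, with a log2 change of -0.22 (edgeR adjusted p = 0.99974, SE 0.148) in metastases over KO primary tumours. Pcna averaged 364 ± 14.2 CPM in KO metastases, 367 ± 36.1 CPM in KO primary tumours and 295 ± 61.8 CPM in control primary tumours. Without control primary 3 Pcna was called in both comparisons against control primary, the smallest adjusted p among the 40 genes in the KO primary comparison then being 0.0477 (edgeR). Of all genes, 5.16% were called in that fit for KO primary and 6.00% for KO metastasis.

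For nucleotide supply, Rrm1 and Rrm2 code for both subunits of ribonucleotide reductase and Tyms for thymidylate synthase. Rrm2 (chr12:24708241-24714146, plus strand), the subunit made in S phase, measured 385, 528, 489.6 and 534 CPM in the 4 metastases, 608, 475, 559.9 and 471 CPM in the 4 KO primary tumours and 329, 407, 275, 451 and 489 CPM in the 5 controls. Control primary 5 and 3 were the lowest, and control primary 7 lay above KO primary 4 and 7. Rrm2 averaged 484 ± 69.3 CPM in KO metastases, 528 ± 66.8 CPM in KO primary tumours and 390.1 ± 87.8 CPM in control primary tumours, with a log2 change of 0.44 (edgeR adjusted p = 0.238, SE 0.170) in KO primary tumours and a log2 change of 0.31 (edgeR adjusted p = 0.468, SE 0.170) in metastases, both over controls. Rrm1 (chr7:102441695-102469771, plus strand) measured 198, 473, 348 and 349.8 CPM in the 4 metastases, 472, 422, 386 and 384 CPM in the 4 KO primary tumours and 238, 351, 273, 424 and 371 CPM in the 5 controls. KO metastasis 3 was the lowest library and KO metastasis 4 the highest, and the groups overlapped. Rrm1 had a log2 change of -0.28 (edgeR adjusted p = 0.99974, SE 0.232) in metastases over KO primary tumours. Tyms averaged 161 ± 16.5 CPM in KO metastases, 162 ± 21.4 CPM in KO primary tumours and 152 ± 19.0 CPM in control primary tumours, with a log2 change of 0.09 (edgeR adjusted p = 0.923) in KO primary tumours over controls.

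The G1/S switch is represented by the 2 E-type cyclins and E2f1, the transcription factor they release. Ccne1 (chr7:38097984-38107534, minus strand), cyclin E1, measured 33.8, 36.6, 44.5 and 52.4 CPM in the 4 metastases, 40.8, 47.6, 52.4 and 52.2 CPM in the 4 KO primary tumours and 23.1, 41.7, 28.8, 46.3 and 49.5 CPM in the 5 controls. Control primary 3 and 5 were lowest and the groups overlapped. Ccne1 had a log2 change of 0.35 (edgeR adjusted p = 0.578, SE 0.216) in KO primary tumours over controls and a log2 change of -0.20 (edgeR adjusted p = 0.99974, SE 0.228) in metastases over KO primary tumours. E2f1 (chr2:154559407-154569892, minus strand) measured 292, 298, 265 and 301 CPM in the 4 metastases, 266, 244, 330.5 and 275 CPM in the 4 KO primary tumours and 251, 274, 211, 259 and 286 CPM in the 5 controls. KO primary 6 was the highest and control primary 5 the lowest, with overlap throughout. The change of E2f1 was 0.12 (edgeR adjusted p = 0.831) in KO primary tumours and 0.17 (edgeR adjusted p = 0.628) in metastases, both over controls. Ccne2, cyclin E2, averaged 65.8 ± 22.2 CPM in KO metastases, 74.9 ± 3.17 CPM in KO primary tumours and 68.1 ± 12.9 CPM in control primary tumours. None of the 3 genes had an unadjusted p below 0.05 in any comparison.

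The 4 genes that rebuild chromatin behind the fork all had an unadjusted p below 0.05 in KO primary tumours over controls, and none was called. Uhrf1 (chr17:56303321-56323486, plus strand), which brings the maintenance DNA methyltransferase to newly copied DNA, measured 299, 439, 351 and 369 CPM in the 4 metastases, 421, 321, 363 and 422 CPM in the 4 KO primary tumours and 214, 288, 276, 337 and 265 CPM in the 5 controls. Control primary 3 was the lowest library, and control primary 6 lay above KO primary 4. Uhrf1 averaged 365 ± 57.8 CPM in KO metastases, 382 ± 49.1 CPM in KO primary tumours and 276 ± 44.1 CPM in control primary tumours. It had a log2 change of 0.47 (edgeR adjusted p = 0.133, SE 0.150) in KO primary tumours and a log2 change of 0.40 (edgeR adjusted p = 0.212, SE 0.150) in metastases, both over controls. Chaf1a (chr17:56040439-56072289, plus strand), the large subunit of the histone chaperone CAF-1, measured 64.5, 126, 89.7 and 102 CPM in the 4 metastases, 137, 98.4, 104 and 117 CPM in the 4 KO primary tumours and 49.5, 82.2, 85.9, 98.1 and 83.9 CPM in the 5 controls. KO primary libraries all lay above the controls, though KO primary 4 and control primary 6 were almost level, and control primary 3 and KO metastasis 3 were the lowest. Its change was 0.51 (edgeR adjusted p = 0.273) in KO primary tumours over controls and -0.26 (edgeR adjusted p = 0.99974) in metastases over KO primary tumours. Ubxn6 overlaps 52.5% of the exonic bases of Chaf1a on the opposite strand, so this level is uncertain as well. Chaf1b, the middle subunit of CAF-1, averaged 135 ± 15.04 CPM in KO metastases, 144 ± 15.7 CPM in KO primary tumours and 109 ± 18.0 CPM in control primary tumours, and Slbp, which binds the stem-loop of histone mRNAs, 254 ± 40.7 CPM in KO metastases, 277 ± 25.7 CPM in KO primary tumours and 225 ± 23.4 CPM in control primary tumours. Their log2 changes were 0.40 (edgeR adjusted p = 0.191) and 0.30 (edgeR adjusted p = 0.325) in KO primary tumours over controls.

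**Figure D3:**
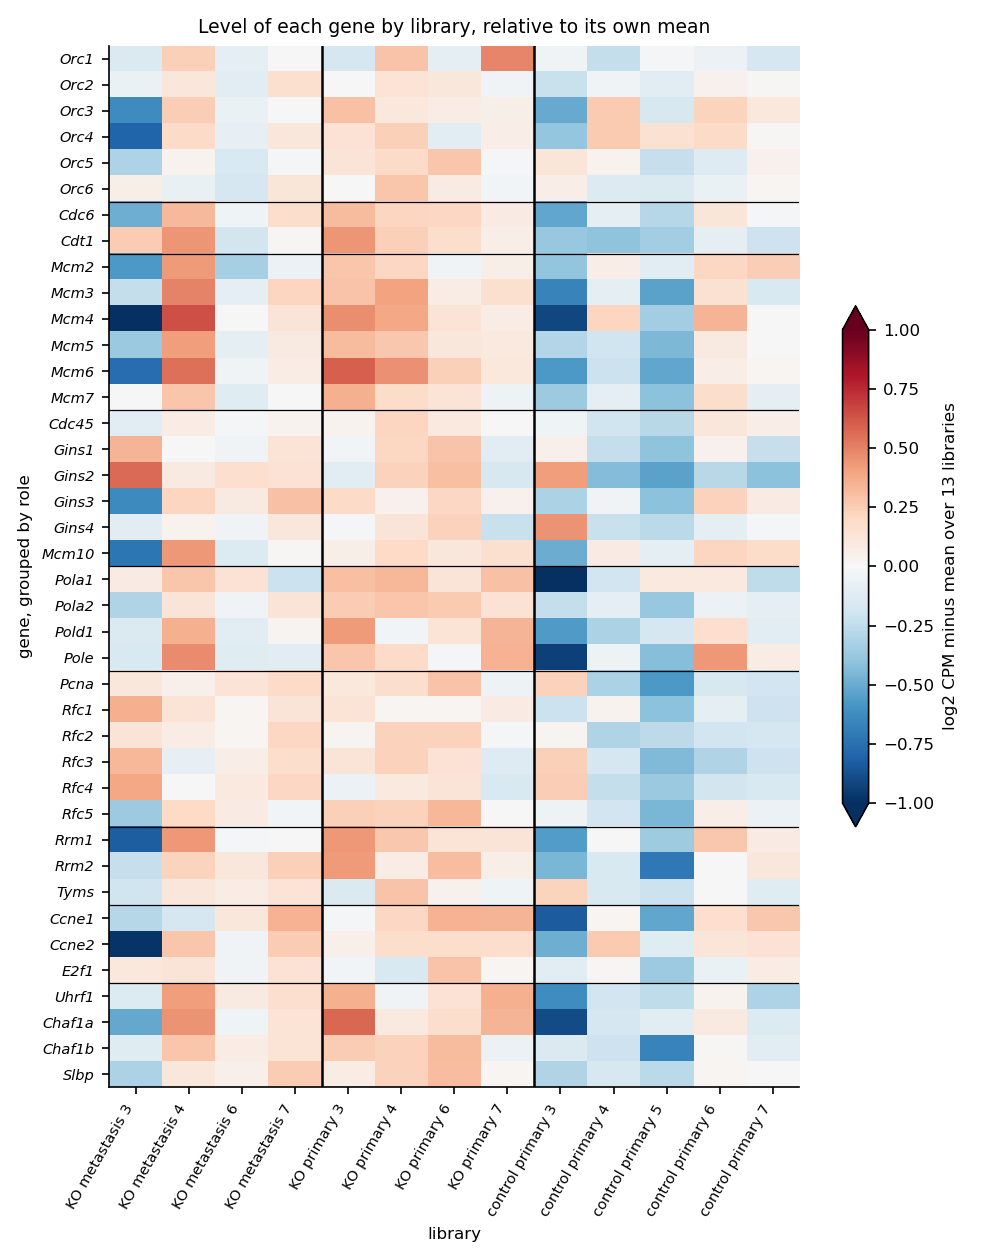
Log2 CPM of each of the 40 genes (rows, grouped by role) in each of the 13 libraries (columns), minus the gene's own mean over the libraries, with colours limited at 1 in either direction. KO metastasis 3 and control primary 3 are low in most Mcm genes and high in Gins2, Rfc3 and Rfc4, and control primary 5 is low in nearly all genes.

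The libraries of 1 group also differed in these genes. The 40 genes summed to 6149, 8865, 7073 and 7747 CPM in the 4 metastases, 8744, 8325, 8125 and 7576 CPM in the 4 KO primary tumours and 5821, 6643, 5595, 7544 and 7037 CPM in the 5 controls. All 4 KO primary sums lay above all 5 control sums, by a narrow margin between KO primary 7 and control primary 6. KO metastasis 3 was the lowest of its group in 27 genes and the highest in 5. KO primary 7 was the lowest of its group in 25 genes, and control primary 5 the lowest of all 13 libraries in 16. KO metastasis 3 and control primary 3 also had an uneven pattern. Mcm2 to Mcm7 summed to 1885, 3438, 2327 and 2623 CPM in the 4 metastases, 3323, 3132, 2746 and 2629.7 CPM in the 4 KO primary tumours and 1794, 2368, 1901, 2796 and 2522 CPM in the 5 controls. Their sum over that of the clamp and its loader was 1.63 in KO metastasis 3 and 1.60 in control primary 3, against 2.11 to 3.15 in the other 11 libraries. In log2 units, the 20 genes with shorter transcripts (below a median of 3406 bases) stood above the 20 longer ones by 0.16 in KO metastasis 3 and 0.32 in control primary 3, each relative to the gene's mean, while the difference in the other 11 ran between -0.21 and 0.055. KO metastasis 3 is the library with the highest mitochondrial share and control primary 3 the one with the highest receptor CPM, and the part of either in the result was not tested.

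**Figure D4:**
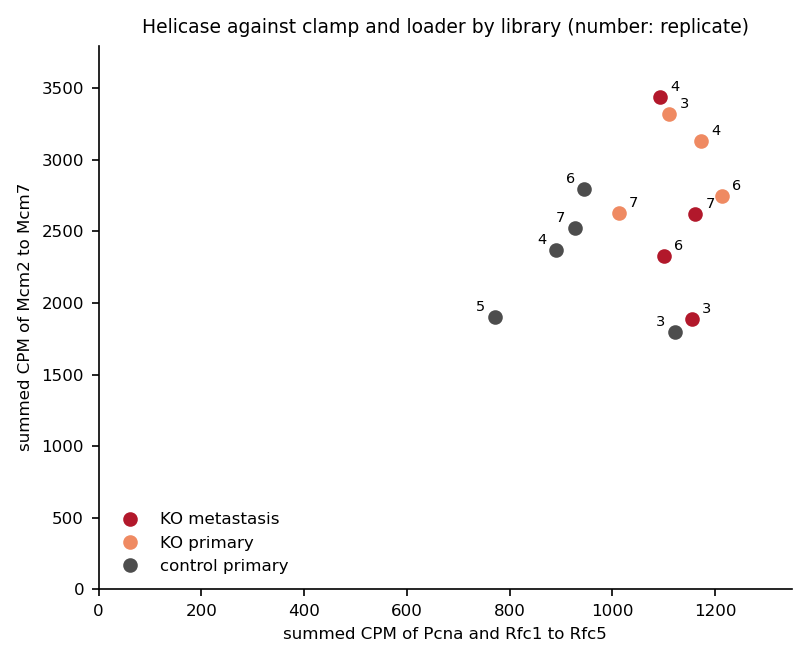
Summed CPM of Mcm2 to Mcm7 (vertical axis) against that of Pcna and Rfc1 to Rfc5 (horizontal axis) in the 13 libraries, with replicate numbers beside the points. KO metastasis 3 and control primary 3 lie lowest for their clamp level, at 1885 and 1794 CPM of Mcm2 to Mcm7, and the other 4 controls lie left of all knockout libraries.

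The shift was re-read without the libraries that stand apart. Without the 4 libraries above 100 receptor CPM, the median in KO primary tumours over controls was 0.30 with 39 of 40 genes positive, against -0.029 over all genes. Cdt1 was called in that fit (edgeR adjusted p = 0.0310), where 7.06% of all genes were. Without control primary 3 alone the median was 0.26 with 39 positive, against 0.032 over all genes. Leaving out control primary 5, 6 and 7, the controls with Xist above 100 CPM, left 2 controls, a median of 0.34, 39 positive genes and no call. All genes had a median of -0.22 in that fit. Across the 9 fits without 1 library the median stayed between 0.23 and 0.35. In metastases over controls the median of the 40 genes lay between 0.092 (without KO metastasis 4) and 0.25 (without control primary 6).

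Compared per kb of exon, the levels of the 40 genes spread widely. Over the union of its exons Rrm2 was the highest at 175 ± 25 CPM per kb in KO metastases, 191 ± 24.1 in KO primary and 141 ± 31.7 in control primary tumours. With the longest transcript as the length, Pcna was the highest instead, at 239.9, 241.5 and 195 CPM per kb in the same 3 groups, beside 221, 240.95 and 178 for Rrm2. Over the union of exons Mcm6, Mcm7 and Pcna came after Rrm2, in an order that differed between groups. Mcm6 stood at 135 ± 47.4 CPM per kb in KO metastases, 171 ± 25.8 in KO primary and 114 ± 23.0 in control primary tumours. Orc1 was the lowest at 3.47 ± 0.416 CPM per kb in KO metastases, 3.84 ± 0.830 in KO primary and 3.22 ± 0.206 in control primary tumours, and Pole the next lowest at 5.33 ± 1.22 CPM per kb in KO metastases, 5.95 ± 0.624 in KO primary and 4.77 ± 1.61 in control primary tumours. Subunits of 1 complex differed in level per length. Orc6 stood above Orc1 by a ratio of 8.90 in KO metastases, 8.61 in KO primary and 9.34 in control primary tumours. Within the helicase Mcm2 was, over the union of exons, the lowest subunit, with the highest subunit 2.89 times as high in KO metastases (Mcm7), 3.00 times in KO primary (Mcm6) and 2.35 times in control primary tumours (Mcm7). With the longest transcript Mcm4 was the lowest subunit and Mcm7 the highest in all 3 groups, by a ratio of 3.31, 3.05 and 3.14, the exons of Mcm2 covering 6956 bases and its longest transcript 3494. Pcna lay above Rfc1 by a ratio of 6.36, 6.86 and 6.51 in KO metastases, KO primary and control primary tumours.

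**Figure D5:**
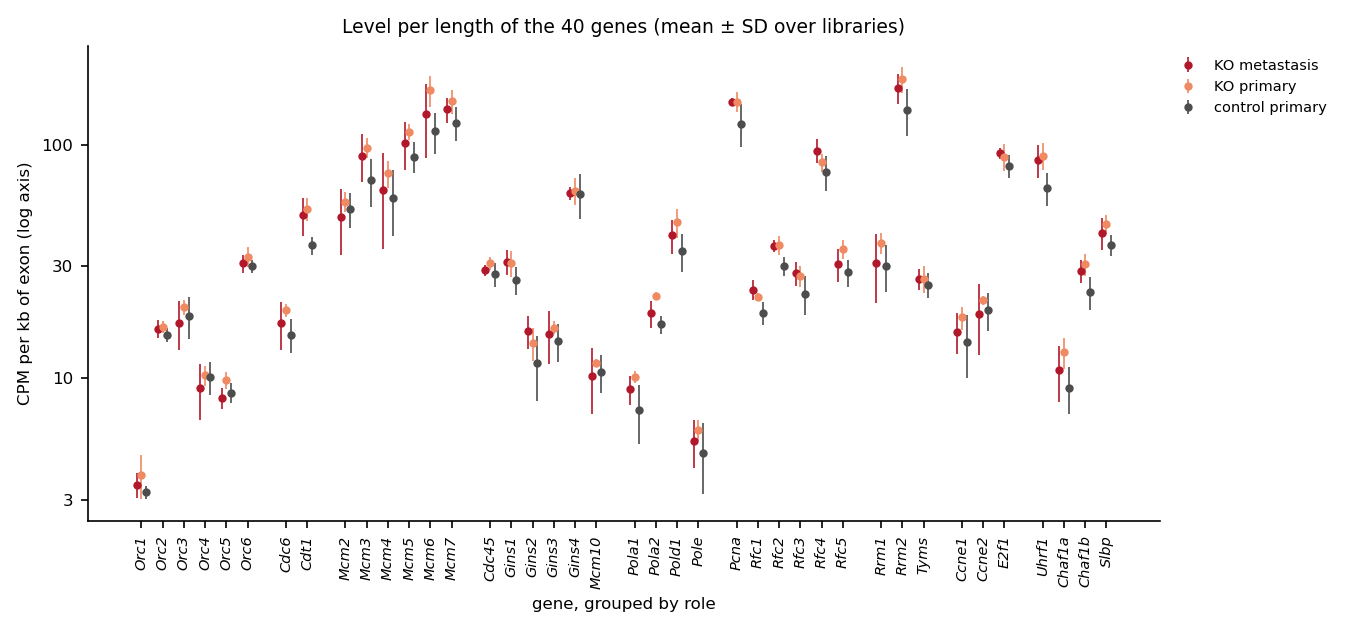
Mean ± SD over libraries of CPM per kb of the union of exons (vertical log axis) of each of the 40 genes, grouped by role, in KO metastases (n = 4), KO primary (n = 4) and control primary tumours (n = 5). Levels run between those of Orc1 at the bottom (3.22 CPM per kb in control primary tumours) and Rrm2 at the top (140.8).

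Another 72 genes of the same processes also stood slightly higher in KO primary tumours. In KO primary tumours over controls 1 of the 72 was called, higher, and none lower (1.15% of all tested genes were called higher), 65 had a positive log2 change and the median was 0.30. The KO primary libraries lay above all controls in 14 of them, where 3.57% of all genes did. In metastases over KO primary tumours none was called (0.00449% of all genes were), 19 were positive (49.6% of all genes) and the median was -0.085. In metastases over controls none was called (3.08% of all genes), 57 were positive (46.6% of all genes) and the median was 0.17. The called gene was E2f5 (chr3:14578641-14606309, plus strand), a repressor of the E2F family that binds the retinoblastoma relatives. E2f5 measured 47.2, 54.0, 58.2 and 57.7 CPM in the 4 metastases, 64.6, 62.9, 66.8 and 46.1 CPM in the 4 KO primary tumours and 35.2, 41.7, 42.5, 41.0 and 40.5 CPM in the 5 controls. All KO libraries lay above all controls. E2f5 rose in KO primary tumours, with a log2 change of 0.58 (edgeR adjusted p = 0.0285, SE 0.131) against control primary, and its change was 0.43 (edgeR adjusted p = 0.104) for KO metastasis. In 7 of the 9 fits that leave out 1 library E2f5 was no longer called (edgeR adjusted p up to 0.142). Nor was it without the 3 controls above 100 CPM of Xist (edgeR adjusted p = 0.434). Of the other genes at the fork, Chtf18, the large subunit of an alternative clamp loader, averaged 129 ± 30.5, 154 ± 10.6 and 88.7 ± 29.6 CPM in KO metastases, KO primary and control primary tumours, and Pold2, a subunit of polymerase delta, 189 ± 29.7, 179 ± 16.2 and 128 ± 23.1 CPM. Their log2 changes in KO primary tumours over controls were 0.80 (edgeR adjusted p = 0.0828) and 0.48 (edgeR adjusted p = 0.104). Of the licensing genes, Gmnn, the inhibitor of Cdt1, had 0.34 (edgeR adjusted p = 0.440) and Ticrr, which helps recruit Cdc45, 0.36 (edgeR adjusted p = 0.515). Tk1, an enzyme of thymidine supply, had 0.46 (edgeR adjusted p = 0.180), the histone chaperones Asf1a and Asf1b 0.35 (edgeR adjusted p = 0.232) and 0.33 (edgeR adjusted p = 0.137), and Fbxo5, an inhibitor of the anaphase-promoting complex, 0.27 (edgeR adjusted p = 0.291).

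Genes of the later cycle and of differentiation were read in the same libraries. The 20 genes of G2 and mitosis summed to 5044 to 6199 CPM in KO metastases, 5325 to 5949.8 CPM in KO primary and 3765 to 5343 CPM in control primary tumours. None was called in KO primary tumours over controls, where 2.93% of all genes were, 20 of 20 were positive, against 45.6% of all genes, and the median was 0.24, beside 0.30 for the 40 replication genes. The summed level of the 40 genes over that of G2 and mitosis was 1.22 to 1.43 in KO metastases, 1.37 to 1.55 in KO primary and 1.23 to 1.55 in control primary tumours, so the groups overlapped in this ratio. The 20 genes of differentiating granule neurons summed to 2038 to 3314 CPM, 1931 to 2192 CPM and 3554 to 5426 CPM in the same 3 groups. Of these, 12 were called lower in KO primary and 10 in KO metastases against control primary tumours, among them Tubb3 and Neurod1 in both. Of all tested genes 1.78% and 2.02% were called lower. Not every gene of the list went that way. Rbfox3 measured 224 to 310 CPM in KO metastases, 236 to 288 CPM in KO primary and 166 to 239 CPM in control primary libraries. The 40 genes over the differentiation genes gave ratios of 1.86 to 3.71 in KO metastases, 3.57 to 4.31 in KO primary and 1.22 to 1.67 in control primary tumours. The part of differentiating cells in the shift of the replication genes was not tested.

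For 14 of the 40 genes the annotation has exons on the opposite strand within their own, and for 8 these cover over 10% of the exonic bases. Beside Gins2 and Chaf1a these are Orc2 (29.8%, Nif3l1), Ccne2 (17.4%, Ints8), Rfc2 (15.1%, Lat2), Rfc4 (12.7%, Eif4a2), Rfc5 (10.7%, Wsb2) and Orc1 (10.8%, Gm12743). Over all libraries Ints8, Nif3l1 and Eif4a2 drew 1.42, 1.22 and 1.39 times the counts of Ccne2, Orc2 and Rfc4, Wsb2 0.606 times those of Rfc5, and Lat2 0.00633 times those of Rfc2. How many of these counts fall in the shared bases was not measured. The processed copies Pcna-ps2 and Rrm2-ps1 drew 1.21% and 0.0945% of the counts of Pcna and Rrm2.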

How the data were processed

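The authors deposited 1 table of whole-number gene counts for the 13 libraries, and the submitters' processing notes name STAR 2.4, HTSeq 0.6.1, DESeq2 and mm10 without their roles. Neither strand setting nor annotation is given in the sources used here. One edgeR 4.0.16 model took in all 13 libraries (R 4.3.3, limma 3.58.1): filterByExpr (minimum count 10, minimum total 15), TMM factors, 3 group means, the quasi-likelihood test and Benjamini-Hochberg adjustment over 22265 genes, with calls at an adjusted p below 0.05. Library totals ran between 23545383 and 41412288 counts, and each group has 4 or 5 libraries. No pair of libraries within a group agreed within sampling noise. Gene coordinates and exon lengths come from GENCODE M21 on GRCm38, the assembly that mm10 names, and promoter windows from RefSeq GRCm38.p6. The 40 genes and all lists were chosen with earlier results of these data known. Values in every library are given for each gene that was called and, in each role, for the gene with the smallest edgeR p in each comparison. Of the other 72 genes, called genes and the 2 of each list with the smallest p in KO primary against control primary are named, except 1 that is not reported here. Alternatives were DESeq2 1.42.0, limma voom with quality weights, other scalings, no filter, only the groups compared, a replicate block, leaving out libraries, and receptor CPM as a covariate. No sample was dropped or imputed in the main results.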

Additional observations from a re-analysis of the deposited data

Results flagged for a closer look

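In 150 groups of 4 or 5 libraries (each of the genes in each group and the summed levels), 4 held 1 library far from the others by Dixon's test, and chance flags about 1 in 20 groups. Gins2 stood at 80.4 CPM in KO metastasis 3, where the other 3 metastases had 57.7 to 61.0 CPM. Gins2 was also apart in control primary 3, at 72.7 CPM against 37.4 to 44.7 CPM in the other 4 controls. Pole, the catalytic subunit of polymerase epsilon, stood at 79.9 CPM in KO metastasis 4 against 51.7 to 53.5 CPM in the other 3 metastases. Ccne2, cyclin E2, was low in KO primary 3, at 70.1 CPM against 76.4 to 76.5 CPM in the other 3 KO primary tumours.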

How the results depend on the processing

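No direction of a called value reversed. In KO primary against control primary, calls among all genes (653) were 1653 with DESeq2, 3267 with limma voom and 138 without the controls above 100 CPM of Xist. They were 1427 without the 4 libraries above 100 receptor CPM, 1090 with receptor CPM as a covariate and 277 to 1032 without 1 library. With only the 2 groups compared, 833 of 18942 genes were called, and with total counts 673 of 22265. Calls among the 40 genes were 3 with DESeq2 and 9 with voom. They were 1 each (Cdt1) without those 4 libraries, with only the 2 groups, with the covariate and with total counts. Without 1 library they were 0 to 1 (Pcna without control primary 3). In each fit with 1 call, the called share of the 40 genes was below that of all genes. In KO metastasis against KO primary, calls among all genes (1) were 39 with DESeq2, 2 with every gene with a count, 2 with voom, 5 without the 4 libraries, 0 with only the 2 groups, the covariate or total counts, and 0 to 1 without 1 library. Positive genes (6 of 40) were 10 with DESeq2 and with its size factors, 11 with only the 2 groups, 12 with upper quartile factors and 4 to 19 without 1 library (19 without KO metastasis 3). In KO metastasis against control primary, calls among all genes (685) were 1674 with DESeq2, 3822 with voom and 100 without the controls above 100 CPM of Xist. They were 1274 without the 4 libraries, 1099 with the covariate and 369 to 1199 without 1 library. Calls among the 40 were 2 with DESeq2 (Cdt1 and Rfc1, beside 8.82% of all genes) and 5 with voom (Gins2, Pcna, Rfc2, Rfc3 and Rfc4, beside 17.2%). They were 2 without the 4 libraries (Cdt1 and Gins2, beside 6.30%) and 1 with the covariate (Cdt1, beside 4.94%). Without 1 library 0 to 3 were called (Gins2, Pcna and Rfc4 without control primary 3, beside 6.00%). With the longest transcript, ratios of highest to lowest level in controls were 3.14 for Mcm2-7, 8.12 for clamp and loader and 13.6 for origin recognition. The cause of these changes was not tested.

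The labels do not say what a replicate number shares, and the numbers were not taken as pairs. Same-numbered libraries had correlations of -0.21 to 0.21 for KO primary and control primary, 0.027 to 0.58 for KO metastasis and KO primary (all positive, with replicates 6 and 7 best matched to their own number) and -0.075 to 0.29 for KO metastasis and control primary, and not every library correlated best with its own number. With a replicate block, calls among all genes were 455, 10 and 388 in the same order, none of the 40 was called, and 39, 11 and 30 were positive.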
